A study of Homo sapiens with 10 samples.

Results

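The ratio of ribosome footprints to RNA was described gene by gene in untreated BJ fibroblasts, human foreskin fibroblasts immortalised with telomerase. Members were the transcripts, with a single isoform for each gene, that reached at least 5 FPKM in the control column of both the RNA-Seq and the Ribo-Seq table, and 6259 of the 11258 transcripts held by both tables did. FPKM is the number of reads scaled to transcript length and library size. RNA-Seq was made from poly(A) RNA, and Ribo-Seq from the mRNA fragments that cycloheximide-arrested ribosomes protect from RNase. The study followed these cells over 2, 4, 6 and 19 h of nutlin-3a, a compound that frees p53 from MDM2, and each time point and the control had 1 library per assay. The control therefore has no replicate, no p-value was computed, and every error given is the counting error of a log2 ratio, which leaves out variation between cultures and between library preparations. The 4 treated pairs of libraries are used below only to show how far a control value held in other cells of the same line. They are not repeats of the control, and with 1 library each, effects of nutlin-3a and of the library cannot be told apart.

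Translational efficiency, or TE, was taken as the Ribo-Seq FPKM divided by the RNA-Seq FPKM of the same transcript, on a log2 scale. Both values are scaled to length, so TE reads as footprints per length of mRNA and not as ribosomes per mRNA molecule. Protein output depends on how many copies of an mRNA a cell holds and on how densely ribosomes load each copy, which is set mostly at initiation, where the small ribosomal subunit is recruited to the cap and scans to a start codon. A tract of pyrimidines at the very start of an mRNA (TOP) places ribosomal protein and elongation factor mRNAs under mTOR control, while upstream open reading frames (uORFs) in the 5′ leader take up scanning ribosomes before the main reading frame. Growing fibroblasts are known for high expression of cytoskeletal proteins, collagens and the translation machinery.

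The starts of 7 members show the element that the TOP results below turn on. Each line gives 25 bases of GRCh38.p14 from RefSeq, with 10 bases before the annotated first base of the transcript and 15 from it on, 5′ to 3′ on the coding strand. Capitals mark a C within 5 bases of that first base that at least 4 further pyrimidines follow. RPS21 and RPL35, with high TE, and EEF1A1 and EEF2, with TE near the median, hold such a tract. COX6A1 and ROMO1, with TE far above the median, and HIST1H1C, with the highest Ribo-Seq to RNA-Seq ratio of the members, do not.
RPS21 (chr20:62387093-62387117, plus strand): ctagctgCTTCCTTTCTCTCTCgcg
RPL35 (chr9:124861943-124861967, minus strand): cgcctaCTTCCTCTTTCCCTCggag
EEF1A1 (chr6:73521018-73521042, minus strand): cgtgaacgttCTTTTTCgcaacggg
EEF2 (chr19:3985449-3985473, minus strand): cgtcagcgttCTCTTCCgccgtcgt
COX6A1 (chr12:120438103-120438127, plus strand): gcgctgcggcagtccagatcaaaaa
ROMO1 (chr20:35699395-35699419, plus strand): cctccccgtcgttttccgtgagaga
HIST1H1C (chr6:26056456-26056480, minus strand): gcgctgcttcatcggcgctttgcca

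The totals behind the FPKM values, worked back from the steps between those values, were 23.8 to 27.6 M reads in RNA-Seq and 7.74 to 14.5 M reads in Ribo-Seq, with 23.8 and 11.8 M in the control pair. A member had a median of 1464 RNA-Seq and 581 Ribo-Seq reads in the control, and its TE a median counting SE of 0.072 (log2), at most 0.24. The cell type label was checked against marker genes. All 16 fibroblast markers were members, from FAP at 14.8 RNA-Seq FPKM to VIM at 4194, whereas the endothelial markers VWF and TEK stood at 0.095 and 0.282 and the other 4 on that list were not analysed here. Of the markers with an RNA-Seq value, 2 of 5 epithelial, 1 of 3 leukocyte and 1 of 3 melanocyte markers reached 5 FPKM. These were the epithelial keratins KRT18 (293 RNA-Seq and 575 Ribo-Seq FPKM) and KRT8 (12.4 and 5.04), the macrophage marker CD68 (62.9 and 54.7) and the melanocyte factor MITF (6.79 and 5.91). The others, CDH1, KRT19, CLDN4, PTPRC, CD14, PMEL and MLANA, did not exceed 0.382 RNA-Seq FPKM, and the part of other cell types in the results was not tested.

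The rule's threshold passed through a dense range of values. In RNA-Seq, C6orf64 (5.003), WDR83 (5.008) and BOP1 (5.027) lay just inside, and NAMPT (4.997), SYNGR1 (4.995) and PIR (4.987) just outside. In Ribo-Seq, WDTC1 (5.007), SP140L (5.008) and ITGA8 (5.009) lay just inside, and NRIP3 (4.999), ESF1 (4.996) and PHF2 (4.995) just outside. A further 1665 transcripts reached 5 FPKM in RNA-Seq alone and 195 in Ribo-Seq alone.

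The 10 most abundant mRNAs lay between 1694 and 4194 RNA-Seq FPKM. VIM, the intermediate filament protein vimentin, was the highest at 4194 RNA-Seq FPKM, followed by the cytoplasmic actin ACTB (4061), the secreted lectin LGALS1 (4008), the other cytoplasmic actin ACTG1 (3507), the elongation factor EEF1A1 (2528), the glycolytic enzyme GAPDH (2358), the actin-sequestering TMSB10 (2350), the membrane-binding ANXA2 (2064), the type I collagen chain COL1A2 (1807) and the calcium-binding S100A6 (1694). Of the members, 609 reached 100 and 25 reached 1000 RNA-Seq FPKM, around a median of 22.7. The lowest were C6orf64, WDR83, BOP1 (a ribosome assembly factor), NAAA (a lysosomal amidase, 5.04) and COX7A1 (a cytochrome c oxidase subunit, 5.06).

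In footprints LGALS1 was the highest at 10961 Ribo-Seq FPKM, ahead of S100A6 (6913), ACTB (6449), ACTG1 (4475), TMSB10 (4367), S100A4 (3283), the actin-severing cofilin CFL1 (3181), VIM (3177), GAPDH (2920) and the ribosomal protein RPL35 (2857). The 10 genes highest in RNA-Seq and the 10 highest in Ribo-Seq shared 7, and the 100 highest of each shared 73. EEF1A1 stood at rank 14 and COL1A2 at rank 35 in Ribo-Seq. The lowest members in Ribo-Seq were WDTC1, SP140L, ITGA8 (an integrin chain), KCTD2 and FOXO3 (a forkhead transcription factor), all at 5.01 FPKM, with RNA-Seq levels between 7.60 and 15.2 FPKM.

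Ribo-Seq levels spread more widely than RNA levels. The SD of log2 FPKM over members was 1.69 in Ribo-Seq and 1.42 in RNA-Seq, and the 95th percentile lay 41.3-fold above the 5th in Ribo-Seq and 23.0-fold in RNA-Seq. Across the 6259 genes the levels had a Spearman correlation of 0.80, and a Pearson correlation of 0.86 on the log2 scale. Both values of a gene share its transcript length, and genes are not independent replicates. The most read genes that together held 50% of the members' reads numbered 467 in Ribo-Seq and 586 in RNA-Seq.

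**Figure D1:**
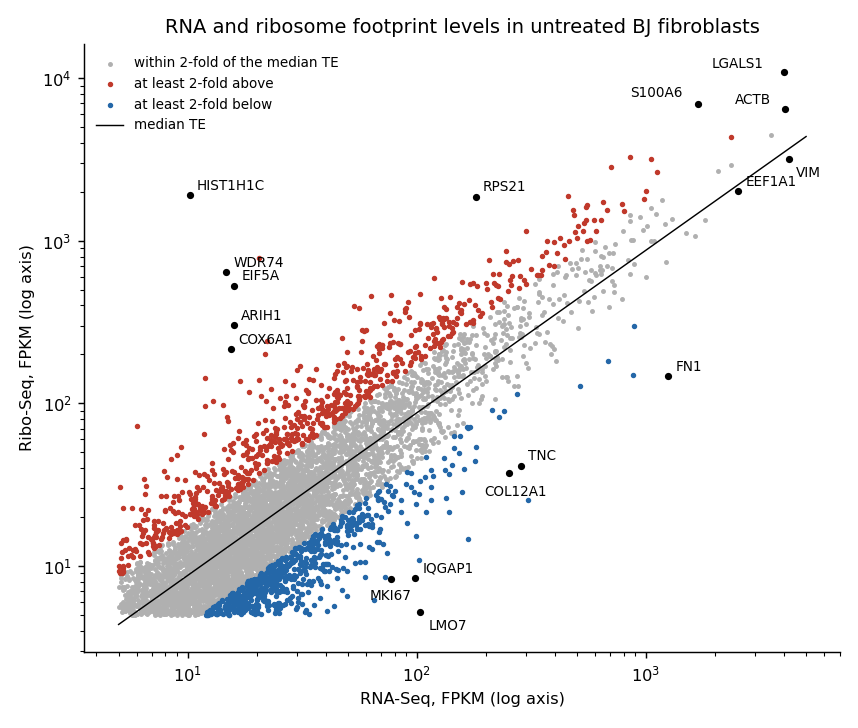
RNA-Seq FPKM (horizontal) and Ribo-Seq FPKM (vertical), both on log axes, of the 6259 members in the control; each point is a gene, the line marks the median TE, colours mark genes at least 2-fold from it and black points carry the names. LGALS1 is the highest gene in Ribo-Seq, HIST1H1C, WDR74, HIST1H2BK (not named) and EIF5A stand farthest above the line, LMO7 lies farthest below, and the lower edge at 5 FPKM cuts the blue group short at low RNA levels.

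TE is given relative to its median over members, which was -0.19 on the log2 scale. Relative TE had an SD of 0.87 (log2), and its 5th and 95th percentiles, -1.33 and 1.44, lay 6.86-fold apart. In all, 722 genes (11.5%) lay at least 2-fold above the median and 666 (10.6%) at least 2-fold below, while 94 lay at least 4-fold above and 58 at least 4-fold below. The rule limits the lower class, since a gene under 11.4 RNA-Seq FPKM could be 2-fold below only with under 5 Ribo-Seq FPKM. With members in 5 equal groups by RNA level, none of the 1252 in the lowest group (5.00 to 11.7 FPKM) was in that class, and 325 transcripts at or above 11.4 RNA-Seq FPKM were left out of the members for a Ribo-Seq value under 5. In the highest group (54.3 FPKM and above), 248 genes lay at least 2-fold above the median and 110 at least 2-fold below.

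Among genes with at least 100 reads in both control libraries, 7 of the 10 highest in TE had transcripts of 340 to 923 nt, and 9 had RNA-Seq levels of 6.00 to 22.2 FPKM. HIST1H1C, a linker histone, had 10.2 RNA-Seq and 1913 Ribo-Seq FPKM, a relative TE of 7.74 ± 0.11 (counting SE), and the core histone HIST1H2BK had 20.5 and 782 FPKM, a relative TE of 5.45 ± 0.074. Most replication-dependent histone mRNAs end in a stem-loop and not in a poly(A) tail, so a poly(A) library does not give their full RNA level and the ratio is no measure of their translation. Of 28 such transcripts in both tables, 26 were under 5 RNA-Seq FPKM and 27 reached 5 Ribo-Seq FPKM, with medians of 0.597 and 817 FPKM.

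WDR74, a ribosome assembly factor, had 14.7 RNA-Seq and 643 Ribo-Seq FPKM, 49.9 times the median TE. Its relative TE was 5.64, 4.55, 5.37, 5.40 and 4.66 in the control and at 2, 4, 6 and 19 h. EIF5A, the translation factor that carries hypusine, had 15.9 RNA-Seq and 528 Ribo-Seq FPKM, and its relative TE stayed between 5.21 and 5.77 in the 5 pairs. ARIH1, a ubiquitin ligase with a transcript of 6047 nt, had a relative TE of 4.44 in the control but 2.69 at 2 h. Its Ribo-Seq levels were 302 and 98.8 FPKM there, beside 15.9 and 16.8 in RNA-Seq. ATXN7, a subunit of the SAGA coactivator, stood at 3.78 in the control and 3.58 at 2 h, and at 5.54, 6.19 and 5.46 at 4, 6 and 19 h. It had 72.3 Ribo-Seq FPKM in the control and 334 at 6 h, beside 6.00 and 5.25 in RNA-Seq. Whether all Ribo-Seq reads of WDR74, ARIH1 and ATXN7 come from ribosomes was not tested. The values of COX6A1 (4.00, cytochrome c oxidase), C7orf59 (3.78), MT1E (3.63, a metallothionein) and RPS21 (3.56, small ribosomal subunit) stayed at 2.69 or above in all 5 pairs. EIF5A, COX6A1, RPS21 and the histones have close copies in the genome. Only reads with a unique hit among the protein-coding transcripts were counted. Where a copy is part of that set, reads may be missing from either assay, and this was not checked.

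The 10 lowest genes of the same ranking had RNA-Seq levels of 40.7 FPKM or more. AHNAK (-3.39), PLEC (-3.32), DYNC1H1 (-3.03) and FN1 (-2.89) would fall among them, but their lengths and reads could not be recovered, and B4GALT2 (-3.19) had fewer than 100 Ribo-Seq reads, so these 5 were not ranked. LMO7, an actin-linked adherens junction protein, had 103 RNA-Seq FPKM and 5.22 Ribo-Seq FPKM (499 reads), 0.058 times the median TE and a relative TE of -4.11 ± 0.065. IQGAP1, a scaffold that binds actin and calmodulin, followed at -3.35 (98.4 RNA-Seq and 8.41 Ribo-Seq FPKM), then the proliferation marker MKI67 at -3.02, the kinase IRAK1 at -2.89 and the heparan sulfate enzyme NDST1 at -2.75. UHMK1 (-2.73), KIAA0100 (-2.73), TRIO (-2.61), the matrix protein TNC (-2.59) and the collagen COL12A1 (-2.56) completed the set. IRAK1 has a transcript of 3666 nt, and the other 9 range from 7233 nt (IQGAP1) to 12678 nt (MKI67). UHMK1, KIAA0100, TRIO and NDST1 stayed between -3.23 and -2.35 in all 5 pairs, whereas TNC and COL12A1 did not.

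TE fell with transcript length. With the 6245 members of known length in 10 groups of equal size, the median relative TE fell in every step, from 1.21 in the shortest group (median 877 nt) to -0.98 in the longest (median 6306 nt). The shortest group held 391 genes at least 2-fold above the median and 2 at least 2-fold below, and the longest held 4 and 300. TE had a Spearman correlation with length of -0.75 across genes. RNA levels had -0.066 and Ribo-Seq levels -0.46. The same falling order of the 10 medians was found in each of the 4 treated pairs, with the shortest group between 0.95 and 1.23 and the longest between -1.03 and -0.81. The scaling to length cancels from TE where both tables used the same transcript length. An equal length was found for 90.9% of the 3375 transcripts whose length was worked out from each table separately. Footprints are largely restricted to coding sequence. The study's supplement lists a control beside the nutlin libraries, with a number of reads outside rRNA close to the control total given above. Of the Ribo-Seq libraries listed there, that control had the lowest share of reads in coding sequence and in the main reading frame. Its other reads lay in the untranslated parts, and whether it is the control used here was not tested. The share of each transcript that is coding was not used here, and its part in the order by length was not tested.

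**Figure D2:**
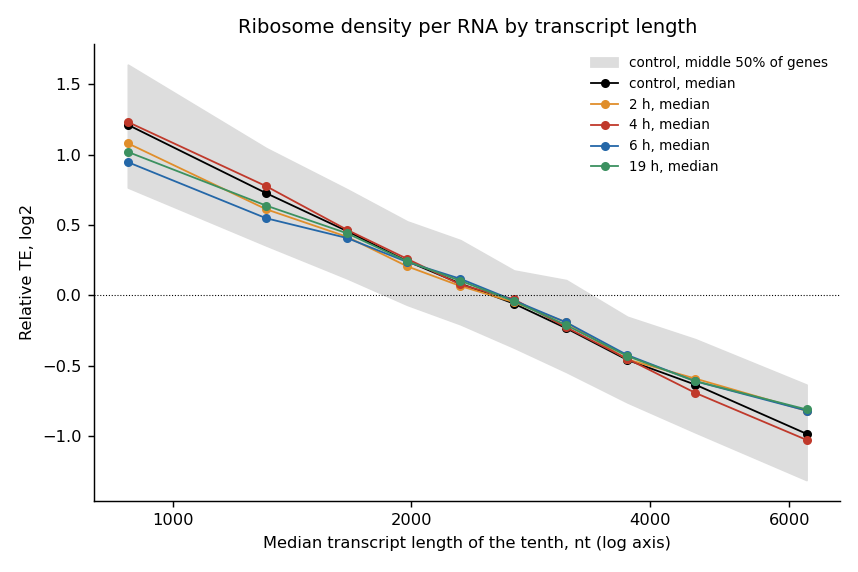
Median relative TE (log2, vertical) of 10 equal groups of members against their median transcript length (log axis), with a line for the control and for each treated pair and the middle 50% of genes in the control in grey. All 5 lines fall, that of the control from 1.21 in the shortest group to -0.98 in the longest.

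When the median TE of 20 length groups was subtracted, the SD of TE fell to 0.59 (log2). Then 207 genes (3.31%) lay at least 2-fold above and 295 (4.72%) at least 2-fold below their length group. Of the 722 genes high in TE, 144 stayed so, and 174 of the 655 low ones with a known length. HIST1H1C (6.33), ARIH1 (5.35), WDR74 (5.24), ATXN7 (4.90) and EIF5A (4.17) led this scale among genes with at least 100 reads in both control libraries, joined by the complex I subunit NDUFS7 (2.83) and PLAC8 (2.47). At its low end, with the same limit on reads, stood TMSL4 (-3.25), LMO7 (-2.99), IRAK1 (-2.50), C20orf20 (-2.42), the transcription factor USF2 (-2.32), IQGAP1 (-2.23), the deadenylase subunit CNOT7 (-2.22) and the GTPase RAB35 (-2.20). TMSL4, NACA2 (-2.18) and HNRNPA1L2 (-2.13) are near-identical copies of more abundant genes, and their assigned reads are uncertain. NDUFS7 and PLAC8 lay near the RNA-Seq threshold, at 5.22 and 6.44 FPKM. The isoform used for NDUFS7 had 3871 nt, so its adjusted value is relative to genes of that length.

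Proteins of the ribosome stood high on the uncorrected scale. Of the 47 large subunit members, 21 lay at least 2-fold above the median (44.7%, against 11.5% of all members) and none at least 2-fold below, with a median relative TE of 0.90. Of the 30 small subunit members 18 did (60%), with a median of 1.18. Their median levels were 554 RNA-Seq and 734 Ribo-Seq FPKM for the large subunit, and 446 and 977 for the small. The large subunit ran from RPL35 (701 RNA-Seq and 2857 Ribo-Seq FPKM, relative TE 2.22) down to the stalk protein RPLP0 (1218 and 735 FPKM, -0.54), and the small subunit from RPS21 (181 and 1863 FPKM, 3.56) to RPS2 (1495 and 1111 FPKM, -0.23). These mRNAs are short, with median lengths of 916 and 864 nt, and against genes of their length the medians were -0.20 and 0.03, with 6 above and 5 below by at least 2-fold in the large subunit and 5 and 3 in the small. The large subunit genes took 2.61% of all RNA-Seq reads (95% Wilson interval 2.60 to 2.61%) and 3.97% of Ribo-Seq reads (3.96 to 3.98%), and the small subunit genes 1.34% (1.33 to 1.34%) and 2.33% (2.33 to 2.34%), with intervals that cover counting error only.

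The 20 elongation factors and other TOP mRNAs had a median relative TE of 0.22. Of them 2 (10%) lay at least 2-fold above and 1 (5%) below, against 11.5% and 10.6% of all members. Against genes of their length the median was 0.048, with 1 at least 2-fold above and 3 below. Of all members with a known length, 3.31% and 4.72% lay so. HNRNPA1, an RNA-binding protein, was the highest (1.22), and PABPC1, the poly(A)-binding protein, the lowest (180 RNA-Seq and 44.1 Ribo-Seq FPKM, -1.84 ± 0.036). EEF1A1 stood at -0.14 and EEF2, the translocation factor, at -0.25. The 31 members of the initiation factor list, in which EIF5A (5.24) and EIF4EBP1 (0.81) stand by their symbols, had a median of 0.45. Apart from EIF5A, the list ran from the cap-binding protein EIF4E (63.1 and 152 FPKM, 1.46) to the scaffolds EIF4G1 (160 and 39.4 FPKM, -1.83) and EIF4G3 (-2.24). The 20 aminoacyl-tRNA synthetases, which charge tRNAs, lay close together around 0.05, from FARSA (0.71) to EPRS (-1.01).

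The pyrimidine tract was searched at the starts of all members. Of the 3705 members with a single annotated start in the RefSeq table, 22.8% had a TOP-like start, beside 21.1% of all starts in that table. With any start of a gene counted, 30.1% of 5175 members had it, and on this count the share was 29.3% of 588 genes at least 2-fold above the median TE and 29.8% of 543 at least 2-fold below. It was 86.8% of 38 large subunit, 83.3% of 24 small subunit and 85.7% of 14 other TOP genes, 23.0% of 61 mitochondrial ribosomal proteins and 18 of 58 respiratory chain subunits. Genes with and without the tract had median relative TE of -0.029 and 0.0072. A match is a description of these letters and not evidence of a working TOP element.

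The respiratory chain list, of mitochondrial proteins made in the cytosol, had the highest median of the lists with at least 5 members. Of 72 nuclear-encoded respiratory chain subunits, 53 lay at least 2-fold above the median TE (73.6%, against 11.5% of all members), none at least 2-fold below, and 71 above the median itself, which 50% of members exceed. Their median relative TE was 1.43, and 0.40 against genes of their length, with 14 still at least 2-fold above. COX6A1 had 15.4 RNA-Seq and 216 Ribo-Seq FPKM, COX7A2 had 76.9 and 466 (2.79), and the ATP synthase subunit ATP5J had 47.0 and 251 (2.61). SDHA, the large flavoprotein of complex II, was the lowest at 72.2 and 62.5 FPKM (-0.02). The 72 mitochondrial ribosomal proteins had a median of 0.93, from MRPL23 (2.25) to MRPS10 (-0.64), with 29 at least 2-fold above (40.3%), and a median of 0.17 with 6 above and 1 below against genes of their length. The 34 proteasome subunits had 0.85, with 14 at least 2-fold above (41.2%), and 0.31 with 2 above against genes of their length. They were led by the core subunits PSMB1 (1.71) and PSMB3 (1.70), while the large regulatory subunit PSMD1 was the lowest (-0.26). These 5 lists supplied 123 of the 627 shortest members, and the other 504 had a median of 1.17, beside 1.21 for the shortest of the 10 groups as a whole. Proteins coded by the mitochondrial genome were not analysed here.

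**Figure D3:**
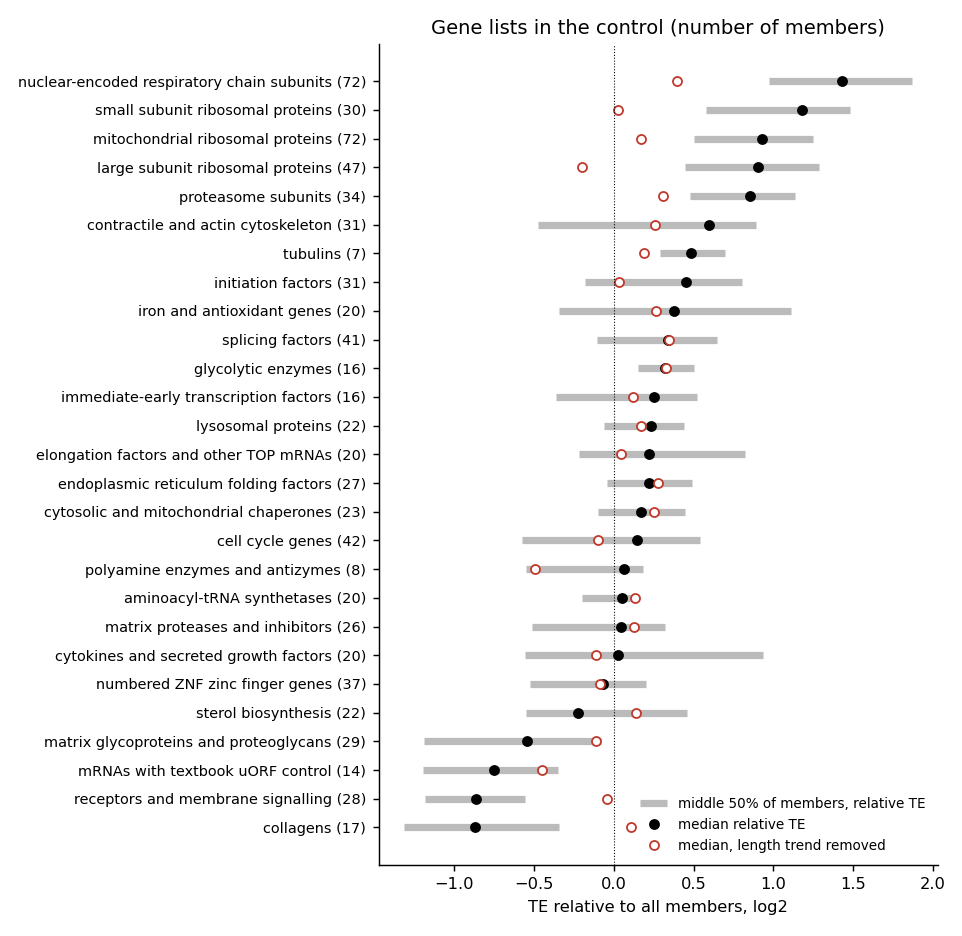
Median relative TE (black), the middle 50% of members (grey bars) and the median after removal of the length trend (open red) for each of 27 gene lists in the control, on a log2 scale with the number of members in parentheses. Respiratory chain subunits are highest at 1.43 and collagens lowest at -0.87, and most open symbols lie closer to 0.

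Glycolytic enzymes (16 members, median 0.32), splicing factors (41, 0.34), cytosolic and mitochondrial chaperones (23, 0.17) and tubulins (7, 0.48) lay above the median, and the first 2 had 0.32 and 0.35 against genes of their length. In the iron and antioxidant list (20 members, median 0.38) 7 genes were at least 2-fold above (35%, against 11.5% of all members), and none was against genes of its length, where 1 was below. The 7 included the small redox proteins TXN (1.71) and SOD1 (1.65). IREB2, an iron sensor, stood at -0.89. Contractile and actin genes lay on both sides. Of 31 members 7 (22.6%) lay at least 2-fold above, with TPM3, a tropomyosin (2.49), the myosin light chain MYL6 (2.24) and CFL1 (1.79), and 7 (22.6%) at least 2-fold below, with the linker PLEC (-3.32), the filament protein NES (-2.49) and the actin crosslinker FLNA (-2.36), and 4 and 3 did so against genes of their length. FLNA was abundant as RNA at 875 FPKM and had 149 Ribo-Seq FPKM. Cell cycle genes (42 members, median 0.15) ran from CKS2, a CDK-binding protein (1.77), to MKI67, with the S-phase transcription factor E2F1 at -1.95. Medians of the lysosomal (22 members, 0.24), sterol biosynthesis (22, -0.23), polyamine (8, 0.07), cytokine (20, 0.03), immediate-early (16, 0.25) and numbered ZNF (37, -0.07) lists lay between -0.23 and 0.25.

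Of the 14 members with textbook uORF control, 6 lay at least 2-fold below the median TE (42.9%, against 10.6% of all members) and 1 at least 2-fold above, with a list median of -0.75, and -0.45 against genes of their length, where 3 were at least 2-fold below. These 3 were DDIT3 (-1.73), ATF5 (-1.49) and ATF4 (-1.02), while the other 5 of the 6, MDM2 (-0.13), SLC7A1 (-0.24), EPRS (-0.30), IBTK (-0.47) and AMD1 (-0.62), were not. CEBPB (1.33) was at least 2-fold above on that scale. If the Ribo-Seq values hold reads from the 5′ leader, footprints on uORFs count in these ratios, and their part was not tested. On the uncorrected scale the stress transcription factor ATF4 had 150 RNA-Seq and 73.4 Ribo-Seq FPKM (-0.84 ± 0.038), and its relatives ATF5 and DDIT3 stood at -1.37 and -0.66. PPP1R15A and PPP1R15B, which direct dephosphorylation of eIF2α, had -0.44 and -0.33. IBTK (-1.39), the arginine transporter SLC7A1 (-1.36), the p53 ligase MDM2 (-1.25), EPRS (-1.01) and AMD1 of polyamine synthesis (-1.004) were lower, and IFRD1 (-0.39) and UCP2 (-0.25) nearer to the median. CDKN1B, a CDK inhibitor, stood at 0.89, and CEBPB, a transcription factor with several start codons, at 1.63 (12.4 RNA-Seq and 33.6 Ribo-Seq FPKM). ATF4 stayed between -1.06 and -0.58 in the 5 pairs. MDM2, whose RNA-Seq level was 14.9 FPKM in the control and 36.3, 203, 254 and 259 in the treated libraries, had a relative TE between -2.002 and -1.74 there.

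**Figure D4:**
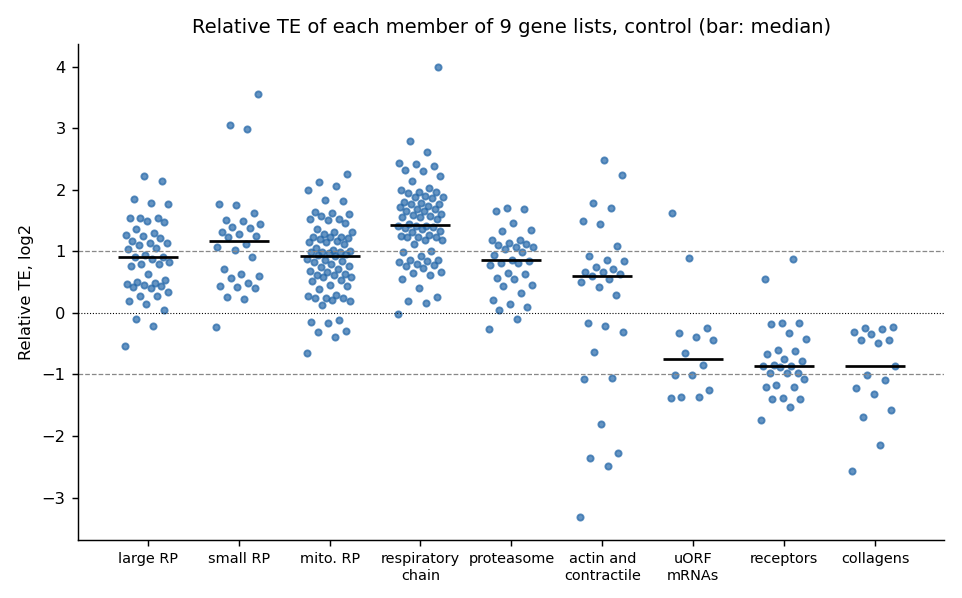
Relative TE (log2) of every member of 9 lists in the control, with a point for each gene, a bar for the list's median and dashed lines at 2-fold above and below the median of all members. No ribosomal, respiratory chain or proteasome gene lies below the lower line, no collagen lies above 0, and the actin and contractile genes spread over both sides.

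Collagens and cell surface receptors had the lowest medians. All 17 collagens lay below the median TE, 8 of them at least 2-fold (47.1%, against 10.6% of all members), with a list median of -0.87. COL1A2 was the highest of them at -0.24, with 1807 RNA-Seq and 1341 Ribo-Seq FPKM, and COL6A3 (-1.70), COL7A1 (-2.15, the anchoring fibril collagen) and COL12A1 were the lowest. Of 28 receptors and signalling proteins of the membrane, 9 (32.1%) lay at least 2-fold below (median -0.87), among them the endocytic receptor LRP1 (-1.73) and TGFBR1, the type I receptor of TGF-β (-1.53), while the hyaluronan receptor CD44 stood at 0.87. Of 29 matrix glycoproteins and proteoglycans 8 (27.6%) did (median -0.55), with FN1, fibronectin, the lowest at 1249 RNA-Seq and 147 Ribo-Seq FPKM (-2.89), and the fibrillin FBN1 at -2.17. The matrix proteases and inhibitors (26 members) had a median of 0.05, with the small inhibitor TIMP1 (2.30) highest and ADAMTS2 (-1.26) lowest. Against genes of their length the medians were 0.11 for 15 collagens, -0.04 for 27 receptors and -0.11 for 26 matrix glycoproteins, with 2, 0 and 2 genes at least 2-fold below and 1 receptor at least 2-fold above, and COL1A2 stood at 0.67.

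The TE of matrix genes differed between the library pairs. In the control and after 2, 4, 6 and 19 h the collagen median was -0.87, 0.47, -0.59, 0.82 and 0.72. COL1A2 had 1807, 1691, 1633, 2141 and 3011 RNA-Seq FPKM and 1341, 2544, 1156, 3849 and 5124 Ribo-Seq FPKM in the same order, so the control and 4 h were low in Ribo-Seq. FN1 had Ribo-Seq levels of 147, 476, 220, 696 and 781 FPKM beside RNA-Seq levels of 1249, 1218, 1496, 1433 and 2114. TNC had 41.3, 179, 63.2, 192 and 204 Ribo-Seq FPKM beside 285, 299, 340, 337 and 370 in RNA-Seq. The medians of the receptors (-0.87, -0.52, -0.95, -0.24 and -0.29), matrix glycoproteins (-0.55, 0.03, -0.60, 0.49 and 0.21), matrix proteases (0.05, 0.24, -0.16, 0.46 and 0.43), lysosomal proteins (0.24, 0.42, -0.06, 0.52 and 0.48) and endoplasmic reticulum folding factors (0.22, 0.51, 0.12, 0.51 and 0.64) were likewise lower in the control and at 4 h than in the other 3 pairs. The actin crosslinker FLNA, a single gene picked after its values were seen, did the same (-2.36, -1.18, -2.04, -0.66 and -0.49). The study's methods describe a batch effect of sequencing runs and a comparison of each condition with a control of its own run. The labels of these libraries name no run, and its part in these differences was not tested.

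**Figure D5:**
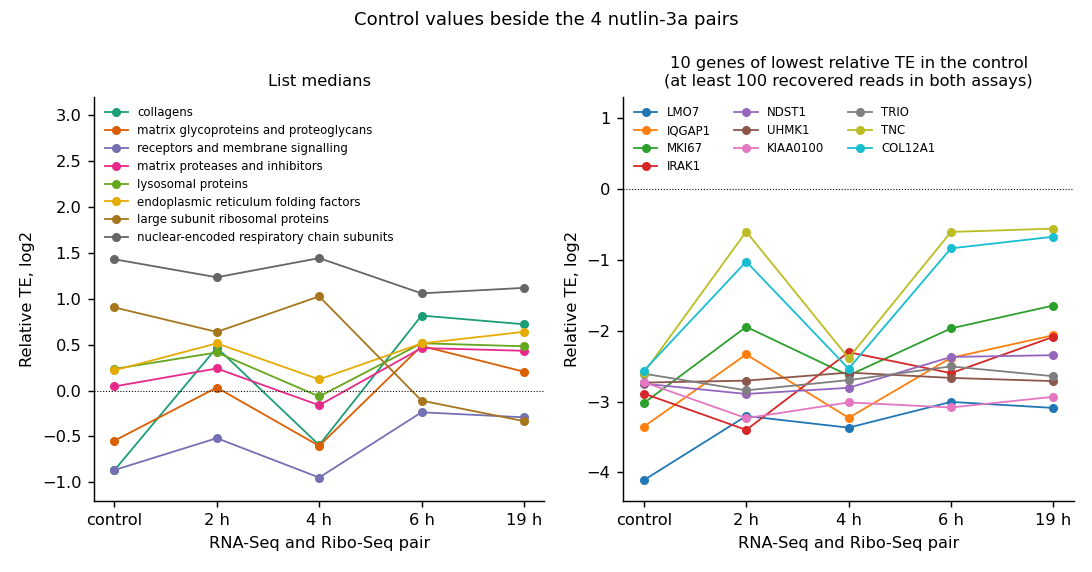
Relative TE (log2) in the control pair and the 4 nutlin-3a pairs, as medians of 8 gene lists (left) and for the 10 genes of lowest TE in the control among those with at least 100 recovered reads in both assays (right); each point is 1 pair of libraries without replicates. The collagen line is below 0 in the control and at 4 h and above 0 at 2, 6 and 19 h, the large ribosomal subunit falls from 0.90 in the control to -0.33 at 19 h, and TNC and COL12A1 move while UHMK1 stays between -2.73 and -2.59.

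The order of genes as a whole held better in some pairs than in others. Relative TE in the control had Pearson correlations of 0.93, 0.95, 0.82 and 0.82 with that at 2, 4, 6 and 19 h across the 6259 genes, which share lengths and sequences between pairs. At 2, 4, 6 and 19 h, 11.3%, 13.5%, 12.1% and 13.1% of the members lay at least 2-fold above the median of their pair, and 11.3%, 12.1%, 13.7% and 13.3% at least 2-fold below. Of the 722 genes at least 2-fold above the median in the control, 421 (58.3%) were so in all 5 pairs, and 329 of the 666 low ones (49.4%). None of the high genes was low, or the reverse, at 2, 4 or 6 h, and at 19 h 2 high genes were low and 1 low gene was high. The large ribosomal subunit had medians of 0.90, 0.64, 1.03, -0.11 and -0.33 in the order of time. The respiratory chain stayed between 1.06 and 1.44 and mitochondrial ribosomal proteins between 0.69 and 0.94. The study reports that nutlin-3a represses the translation of ribosomal protein mRNAs in these cells.

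Some transcripts fell outside the rule by a wide margin in either direction. SPTBN1, a spectrin, had 74.6 RNA-Seq FPKM and 4.72 Ribo-Seq FPKM, and so passed 50 in RNA-Seq but not 5 in Ribo-Seq. In the reverse direction 30 transcripts had at least 50 Ribo-Seq and under 5 RNA-Seq FPKM, of which 25 were replication-dependent histones. Among the other 5, ZNF354B, a zinc finger gene, had 47041 Ribo-Seq and 1.74 RNA-Seq FPKM and held 13.2% of all Ribo-Seq reads of the control. Such a share lowers the FPKM of every other transcript in that library by the same factor, which the centring on the median removes from TE. The limit of 5 Ribo-Seq FPKM and the Ribo-Seq levels set side by side between libraries are not freed of it. Whether the Ribo-Seq reads of ZNF354B come from ribosomes was not tested.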

How the data were processed

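Per the labels and methods, the authors aligned reads with Bowtie (version not given in the sources used here) to protein-coding transcripts of Ensembl release 65, 1 isoform per gene, kept unique hits, and deposited FPKM values per transcript with 3 decimals. Of the tables, that named only for footprints was taken as Ribo-Seq, and that named for both assays as RNA-Seq, and 21 of 28 histone transcripts were under 1 FPKM in its control column. The methods count Ribo-Seq reads in the coding sequence, but the columns are named total, and the transcript length worked out from each table separately was equal in 90.9% of 3375 cases, so which reads the Ribo-Seq values hold is not settled. The floor of 1 FPKM in the methods is absent from these tables.

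Whole reads, lengths and library totals were worked back from the steps between FPKM values for 11206 of 11258 transcripts (99.5%), and the method was tested on simulated tables. Of the members, 14 have no length (FN1, COL1A1, COL6A3, LRP1, PLEC, THBS1 and others) and enter neither length results, read shares nor the TE ranking. TE was log2(Ribo-Seq/RNA-Seq FPKM), with no pseudocount, minus the median over members in the same pair. Its SE treats both read numbers as Poisson counts, and PCR copies could not be removed. With 1 library per group there was no test. A gene was called at 2-fold or more from the median.

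Members and gene lists were chosen with earlier results of these data known; the lists were written from general knowledge. Named genes were the 10 highest and 5 lowest in each assay, the 10 highest and 10 lowest in TE among the 6208 members with at least 100 reads in both control libraries, the extremes of each list, every uORF gene, the 3 genes on each side of the threshold and up to 5 transcripts outside it in each direction, of which 1 is not reported here. Genes named beyond these, as examples of a list, on the length-adjusted scale or for their values in the treated pairs, were chosen after their values were seen. TOP-like starts were matched by current gene symbol to RefSeq starts. Alternatives were thresholds of 1 and 20 FPKM, no filter, at least 40 reads in both libraries, a pseudocount of 1 FPKM, removal of the length trend in 20 bins and centring on the mean. Python 3.11.15, numpy 2.4.6, pandas 2.3.3 and scipy 1.17.1 were used.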

Additional observations from a re-analysis of the deposited data

Results flagged for a closer look

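The collagen list stood out because at least 75% of its 17 members lay below the median TE in the control and at least 75% above it in 3 of the 4 treated pairs. Its median relative TE was -0.87 in the control and -0.59 after 4 h, against 0.47, 0.82 and 0.72 after 2, 6 and 19 h. The difference was not tested, since every group held 1 library.

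Ribo-Seq signal appeared in transcripts left out of the members for an RNA-Seq level under 5 FPKM. The 5 with the highest ratio were ZNF354B at 47041 Ribo-Seq FPKM, TMC5 at 3149, and the histones HIST1H2AJ at 716, HIST1H1D at 851 and HIST1H4C at 2244. ZNF354B had 16165, 10987, 18169 and 39890 Ribo-Seq FPKM at 2, 4, 6 and 19 h, and between 1.39 and 1.64 RNA-Seq FPKM. TMC5 stayed between 2788 and 4154 Ribo-Seq FPKM in the 5 libraries with at most 0.187 in RNA-Seq. Whether the Ribo-Seq reads of ZNF354B and TMC5 come from ribosomes was not tested. The 3 histones stood at 69.3, 56.0 and 425 Ribo-Seq FPKM at 6 h and 7.29, 24.3 and 156 at 19 h.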

How the results depend on the processing

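A pseudocount of 1 FPKM and centring on the mean left both counts within 1.5 times, and every list median within the 95% binomial interval of its position. Other settings changed the set of genes or the scale, and values that left these limits follow.

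With the length trend removed, 207 genes lay at least 2-fold above and 295 below. The signs of the large ribosomal subunit (-0.20) and of collagens (0.11) turned. Medians moved to 0.026 for the small subunit, 0.13 for aminoacyl-tRNA synthetases, 0.17 for mitochondrial ribosomal proteins, 0.40 for the respiratory chain, 0.31 for the proteasome and -0.041 for receptors, and the Spearman correlation of both levels, each freed of its length trend, to 0.89. The cell cycle (-0.10), polyamine (-0.49), cytokine (-0.11) and sterol (0.14) lists also changed sign. At 20 FPKM so did the TOP (-0.063), matrix protease (-0.23), polyamine (-0.40), cytokine (-0.21), endoplasmic reticulum (-0.017) and lysosomal (-0.0012) medians, and the sterol median stood at 0.081 at 1 FPKM, 0.096 with at least 40 reads and 0.17 without a filter.

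At 1 FPKM the counts were 1302 and 1332, the correlation 0.87, and medians 1.41 for the small subunit, 0.28 for synthetases, 1.13 for mitochondrial ribosomal proteins, 0.53 for glycolysis, 0.26 for matrix proteases, 0.57 for splicing and 0.47 for lysosomal proteins. At 20 FPKM they were 291 and 215, with 0.75 for the correlation, -0.19 for synthetases, 0.68 for mitochondrial ribosomal proteins, 1.13 for the respiratory chain, 0.071 for glycolysis, -0.11 for chaperones, 0.053 for splicing and -0.58 for sterol synthesis.

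Without a filter, the counts were 1756 and 1811 and the correlation 0.90, with medians of 1.22 and 1.495 for the large and small subunits, 0.37 for synthetases, 1.22 for mitochondrial ribosomal proteins, 1.73 for the respiratory chain, 0.62 for glycolysis, 1.17 for the proteasome, 0.35 for matrix proteases, 0.52 for endoplasmic reticulum factors, 0.49 for chaperones, 0.38 for the cell cycle, 0.66 for splicing, 0.55 for lysosomal proteins, -0.55 for receptors and -0.50 for ZNF genes. With at least 40 reads in both libraries, the counts were 1347 and 1374 and the correlation 0.87, with 1.16 and 1.43 for the subunits, 0.31 for synthetases, 1.18 for mitochondrial ribosomal proteins, 1.67 for the respiratory chain, 0.55 for glycolysis, 1.11 for the proteasome, 0.29 for matrix proteases, 0.32 for the cell cycle, 0.59 for splicing, 0.49 for lysosomal proteins, -0.60 for receptors and -0.40 for ZNF genes. Sets that admit or drop genes of low level move the median that TE is centred on, and further causes were not tested.

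Ribo-Seq per coding length was not run. No paired analysis was possible because every group held 1 library, and no library could be left out for the same reason. The depth of the Ribo-Seq control limits genes near 5 FPKM, where counting SE reaches 0.24.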
